A study of Mus musculus with 16 samples.

Results

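The cell cycle genes described here were 50 genes of G1 and the G1/S switch, of DNA replication and of G2 and mitosis, taken by symbol from a deposited table of 55401 genes of whole mouse liver. Each of the 50 symbols had 1 row in the table or, with several, the row with most counts was used. The 9 genes of G1 and G1/S were cyclins D1, D2, E1 and E2, 2 cyclin-dependent kinases and 3 E2F factors. The 16 replication genes covered origin licensing, the replicative helicase, the sliding clamp and nucleotide supply. The 25 genes of G2 and mitosis covered the mitotic cyclins and kinases, the spindle checkpoint, the kinetochore, spindle motors, cytokinesis and chromosome condensation.

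RNA of 16 liver libraries was sequenced, 2 from each of 8 groups of mice whose genotype label is WT. The labels used here do not state strain, sex or age. The control group had no thioacetamide. All other groups drank thioacetamide (TAA), a liver toxin that is used to produce fibrosis, at 300 mg/L for 8 weeks. The TAA group was taken at the end of the 8 weeks, and 6 groups then recovered for 1, 2 or 4 weeks without choline (called water here) or with choline chloride at 3.5 g/L in the drinking water. The deposited columns mark the choline groups by a suffix letter C, which was read as choline, so the direction of each choline comparison rests on that reading. Whether both libraries of a group stem from different mice is not stated, so p-values reflect the spread of these samples alone, and that spread may be technical.

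A cell enters the cycle when D-type cyclins with CDK4 release E2F factors from the retinoblastoma family, and E2F then turns on cyclin E and the replication genes. During G1 the MCM2-7 helicase is loaded on origins by CDC6 and CDT1, and in S phase it is activated with CDC45 and the GINS complex. Cyclins A and B with CDK1, Aurora and Polo kinases and the FOXM1 factor then drive G2 and mitosis, and the anaphase-promoting complex ends mitosis with CDC20 and UBE2C. In the adult liver most hepatocytes are quiescent and can return to the cycle after injury, and many rodent hepatocytes are polyploid because they replicate DNA without completing cytokinesis. Promoters of G2 and mitosis genes are known for the CHR element, bound by the MuvB complexes, together with CCAAT boxes bound by NF-Y, and promoters of replication genes for E2F sites.

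Promoter sequences are shown for the mitotic genes Ccnb1, Ube2c and Cdk1 and for 2 subunits of the MCM helicase, to set the letters of a mitotic promoter beside those of a replication promoter. Each stretch is the 160 bases before the RefSeq start site (GRCm38.p6), 5′ to 3′ on the gene's own strand. Capitals mark a CHR element, spelled TTTGAA. Capitals also mark a CCAAT box and an E2F site. The 4 E2F sites searched were TTTCGCGC and also TTTGGCGC and also TTTCCCGC and also TTTGCCGC. Each was searched on either strand, and E2F sites on opposite strands can overlap. Ccnb1 lies at chr13:100786487-100786646 on the minus strand, Ube2c at chr2:164769769-164769928 on the plus strand and Cdk1 at chr10:69352913-69353072 on the minus strand. Mcm5 lies at chr8:75109349-75109508 on the plus strand and Mcm6 at chr1:128359706-128359865 on the minus strand.
Ccnb1: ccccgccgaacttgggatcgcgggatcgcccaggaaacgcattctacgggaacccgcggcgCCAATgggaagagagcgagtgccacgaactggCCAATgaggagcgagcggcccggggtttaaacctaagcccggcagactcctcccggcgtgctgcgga
Ube2c: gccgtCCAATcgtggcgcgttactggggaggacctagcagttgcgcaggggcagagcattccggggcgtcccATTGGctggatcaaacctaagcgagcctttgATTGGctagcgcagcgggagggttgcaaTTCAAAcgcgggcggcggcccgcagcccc
Cdk1: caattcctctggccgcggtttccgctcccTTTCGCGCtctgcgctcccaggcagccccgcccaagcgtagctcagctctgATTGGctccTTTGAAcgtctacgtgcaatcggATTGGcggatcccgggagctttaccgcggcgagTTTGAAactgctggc
Mcm5: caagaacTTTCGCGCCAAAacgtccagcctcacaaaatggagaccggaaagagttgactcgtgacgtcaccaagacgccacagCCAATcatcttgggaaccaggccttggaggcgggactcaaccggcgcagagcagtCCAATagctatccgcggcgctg
Mcm6: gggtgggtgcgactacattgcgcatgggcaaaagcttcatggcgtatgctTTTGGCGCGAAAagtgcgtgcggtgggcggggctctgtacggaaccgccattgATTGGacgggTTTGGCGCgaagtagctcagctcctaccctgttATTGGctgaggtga

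The Ccnb1 stretch held CCAAT boxes and no CHR element as spelled here, Ube2c held CCAAT boxes and a CHR element close to the start, and Cdk1 held CCAAT boxes, 2 CHR elements and an E2F site. Mcm5 and Mcm6 held E2F sites and CCAAT boxes and no CHR element. RefSeq promoters from 250 bases before to 50 after the start were available for 40 of the 50 genes. Those of Ccnd1, Ccnd2, Ccne2, Mcm4, Gins2, Ccna2, Aurkb, Kif20a, Tpx2 and Foxm1 were missing. The CHR element was in 14 of 20 promoters of G2 and mitosis genes (70%), 2 of 14 of replication genes (14.3%) and 1 of 6 of G1 genes (16.7%), and in 18.1% of all 27025 promoters. The CCAAT box was in 80% of promoters of G2 and mitosis genes, 71.4% of replication genes and 50% of G1 genes, against 37.9% of all. A CHR element and a CCAAT box were together in 13 of the 20 (65.0%), against 7.12% of all promoters. The E2F site was in 6 of 14 promoters of replication genes (42.9%), 2 of 6 of G1 genes (33.3%) and 1 of 20 of G2 and mitosis genes (5.0%), against 2.32% of all. These are matches of letters in a fixed window and not tests of binding.

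Libraries held 23069490 to 33645258 expected counts, and all 50 genes passed the filter on low counts that kept 17292 genes. Albumin, the main product of hepatocytes, was at 42500 to 57800 CPM (counts scaled to library size with TMM factors) in each library. Malat1, a long noncoding RNA of the nucleus, stood at 146 CPM in replicate 1 of the control group and 1020 CPM in replicate 1 of the TAA group, and at 5230 to 6800 CPM in the other 14 libraries. Some of the calls that changed without those 2 libraries are therefore given beside the results. Others changed as well, among them Rrm2 at 1 week and Pcna at 2 and 4 weeks of water against TAA, which gained a call. Called means an adjusted p below 0.05 in edgeR's quasi-likelihood test, with Benjamini-Hochberg adjustment over the 17292 genes, and the words rose and fell are kept for called genes. Log2 differences are given with their standard errors (SE), and n is 2 libraries in each group. A fit that leaves out a library keeps 1 library in its group, whose spread is assumed to be that of the other groups. With both libraries low in Malat1 left out, this holds for control and for TAA, and calls rest on that assumption. Shares of all genes called are for the fit of all 16 libraries with TMM. Counts from other fits have no background beside them.

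The summed level of the G2 and mitosis genes was 27.4 and 55.1 CPM in the control libraries and 262 and 229 CPM at the end of TAA. It was 50.6 and 112 CPM after 1 week without choline, 39.1 and 55.1 CPM after 2 weeks, and 23.7 and 32.0 CPM after 4 weeks. With choline the sums were 49.3 and 79.5, then 51.3 and 46.1, then 47.7 and 57.5 CPM. The 2 TAA libraries therefore stood above all others, and both libraries of 4 weeks without choline were among the lowest 3. The replication genes summed to 178 and 197 CPM in control, 162 and 146 CPM at the end of TAA and 109 and 107 CPM at 4 weeks without choline. The order of control and TAA turned when plain library totals replaced TMM, with means of 149 and 182 CPM. The TMM sums include Mcm10, with means of 49.8 CPM in control and 14.3 CPM in TAA, and Tk1, with 24.2 and 6.42 CPM. Of the 16 replication genes, 10 had a log2 difference of TAA minus control above 0 and 6 below. For the G1 genes the sums were 105 and 98.8, then 261 and 197, then 78.1 and 75.0 CPM in the same 3 groups, and without Ccnd1 they were 78.9 and 72.9, then 90.2 and 75.2, then 66.8 and 60.9 CPM. A test for any difference among the 8 groups called 2 of 9 G1 genes, 7 of 16 replication genes and 20 of 25 mitotic genes, 29 of 50 in all, and 11.6% of all genes tested. That count was 9 without TAA replicate 1, 14 without TAA replicate 2, and 19 and 17 without replicate 1 and replicate 2 of 4 weeks without choline.

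**Figure D1:**
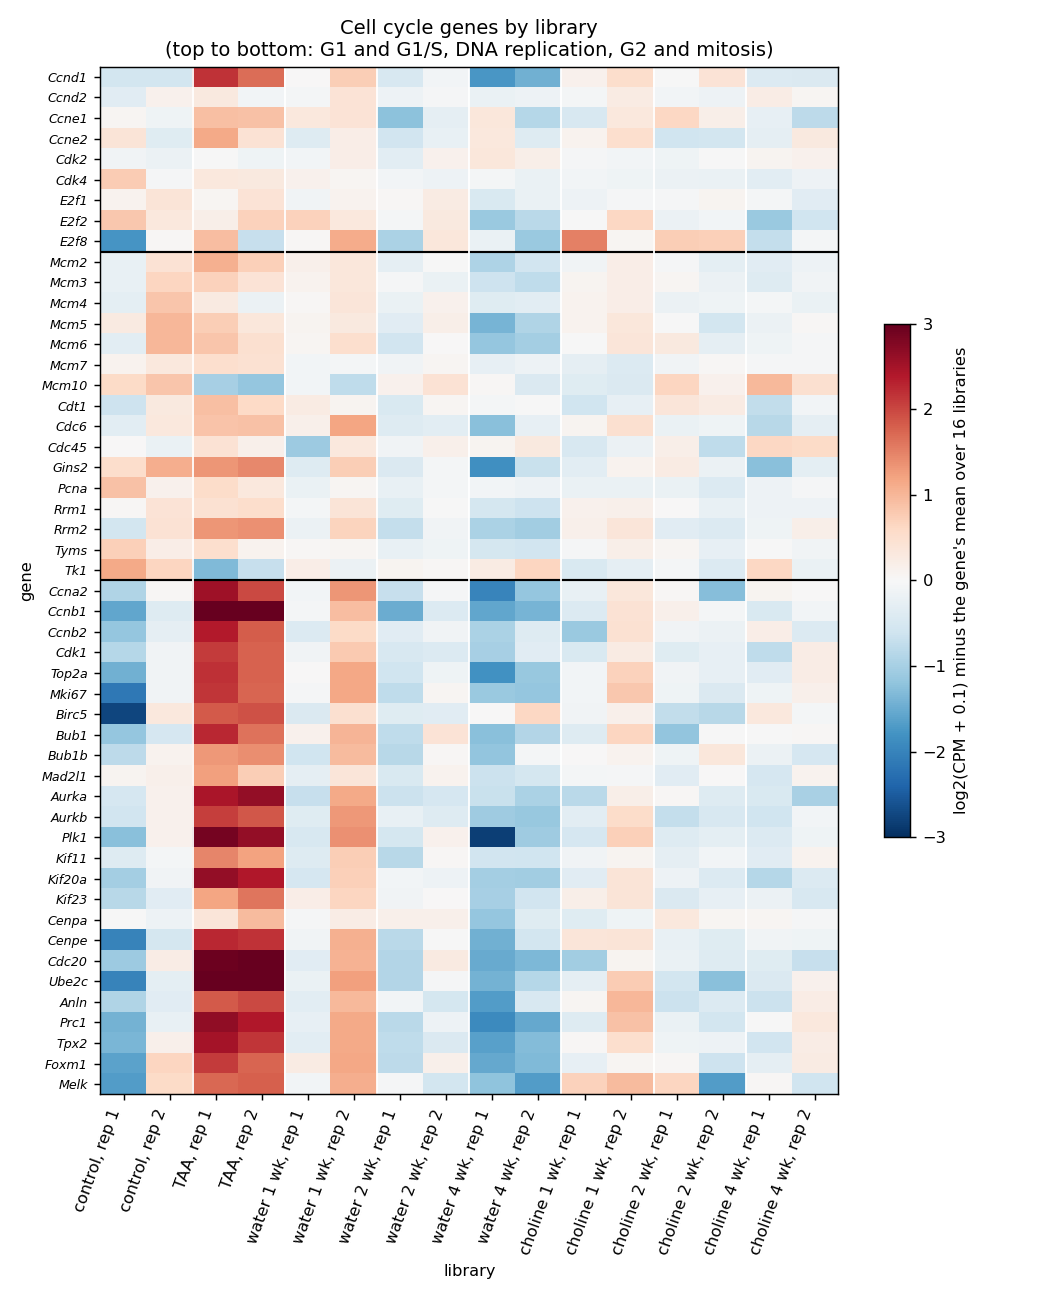
Each row is 1 of the 50 genes and each column 1 of the 16 libraries, and colour is log2(CPM + 0.1) minus the gene's mean over the libraries. The G2 and mitosis block at the bottom is red in both TAA libraries, Mcm10 and Tk1 are blue there, and control replicate 1 is bluer than control replicate 2 in the mitotic block.

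**Figure D2:**
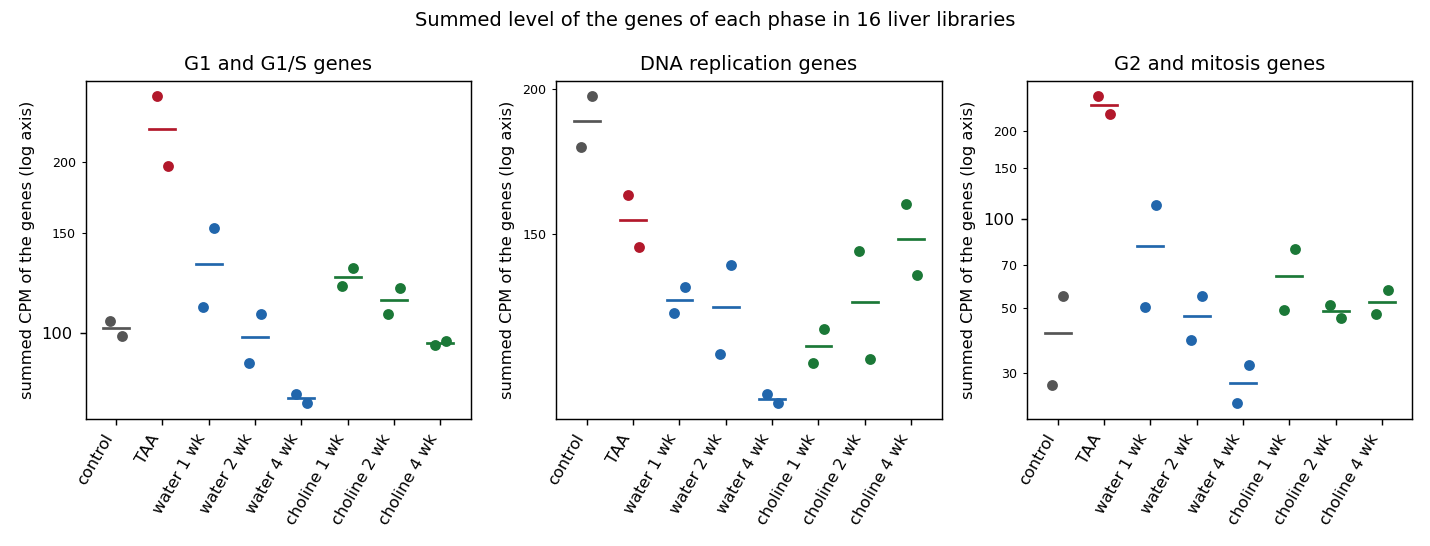
Summed CPM of the genes of each phase on a log axis, with 1 point per library and a line at the mean of the 2 libraries of a group. The mitotic sum is highest in the 2 TAA libraries at 262 and 229 CPM, while the replication sum is highest in the 2 control libraries at 178 and 197 CPM, an order of control and TAA that turned with plain library totals. The replication sum includes Mcm10 and Tk1, which fell with TAA, while 10 of the 16 genes had log2 differences above 0 and 6 below.

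The first comparison asked how the cycle genes stood after 8 weeks of TAA against control. Of the 25 mitotic genes 21 rose and none fell, with a median log2 difference of 2.71. Of the 9 G1 genes only Ccnd1 rose, and of the 16 replication genes Rrm2 rose while Mcm10 and Tk1 fell. The share of all genes called higher was 10% and the share called lower was 11%. The median log2 difference was 0.20 for G1 genes, 0.26 for replication genes and 0.03 for all genes tested. All 25 mitotic genes, 8 of 16 replication genes and 3 of 9 G1 genes had both TAA libraries above both control libraries, as did 25.6% of all genes.

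Ccnd1 encodes cyclin D1, the D-type cyclin that rises in hepatocytes leaving quiescence (ENSMUSG00000070348, chromosome 7 from 144929931 to 144939869 on the minus strand). Its level was 26.0 and 25.9 CPM in control and 171 and 122 CPM at the end of TAA, a log2 difference of 2.50 ± 0.28 (SE) or 5.65-fold (adjusted p = 0.000277). The groups did not overlap. The other D-type cyclin here, Ccnd2, was at 18.5 and 25.3 CPM in control and 28.5 and 21.9 CPM in TAA and was not called. Ccne2, which encodes a cyclin E that drives entry into S phase, was at 1.92 and 1.10 CPM in control and 3.32 and 1.99 CPM in TAA, with a log2 difference of 0.83 ± 0.43 and an adjusted p of 0.196. Ccne1, the other cyclin E (log2 1.01 ± 0.52), Cdk2 (log2 0.07 ± 0.17) and Cdk4 (log2 -0.12 ± 0.20) were not called. The E2F genes E2f1, E2f2 and E2f8 were not called either, and E2f8, which encodes a repressive E2F linked to hepatocyte polyploidy, varied from 1.78 to 18.2 CPM over the 16 libraries without separating the groups.

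Among the mitotic cyclins and kinases, Ccnb1, which encodes cyclin B1, was at 0.320 and 0.856 CPM in control and 12.7 and 10 CPM in TAA. Both TAA libraries lay far above both control libraries, and the log2 difference was 4.23 ± 0.57 (adjusted p = 0.000701). Cdk1, its kinase partner, was at 1.33 and 2.29 CPM in control and 11 and 8.75 CPM in TAA, with a log2 difference of 2.44 ± 0.45 (adjusted p = 0.00361). Ube2c, the ubiquitin-conjugating enzyme of the anaphase-promoting complex, was at 0.183 and 0.821 CPM in control and 9.51 and 8.88 CPM in TAA (log2 4.14 ± 0.71, adjusted p = 0.00244). Foxm1, the transcription factor of the G2 programme, went from 0.411 and 2.36 CPM to 6.58 and 5.12 CPM (log2 2.05 ± 0.63, adjusted p = 0.0392). The 2 control libraries differed more for Foxm1, in ratio, than the 2 TAA libraries did. The Foxm1 call was lost without control replicate 1 or either TAA library, and also without either library of 4 weeks of water or of 1 or 2 weeks of choline. Without the 2 libraries low in Malat1 its log2 difference was 1.1 (adjusted p = 0.199).

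Of the genes that separate chromosomes and cells, Kif20a (a kinesin of the central spindle) was at 1.23 and 2.40 CPM in control and 16.5 and 14.1 CPM in TAA, a log2 difference of 3.06 ± 0.43 (adjusted p = 0.000899). Cenpe, the kinetochore motor, was at 0.320 and 1.06 CPM in control and 7.92 and 7.39 CPM in TAA, a log2 difference of 3.43 ± 0.56 (adjusted p = 0.00193). Cdc20, the activator of the anaphase-promoting complex, was at 1.05 and 2.74 CPM in control and 18.5 and 22.9 CPM in TAA, a log2 difference of 3.43 ± 0.59 (adjusted p = 0.00242). These 3 genes had the smallest p-values of the mitotic set after Ccnb1, and the TAA libraries of each were far above both control libraries. Top2a, the topoisomerase that untangles sister chromatids, was at 1.83 and 4.76 CPM in control and 23.9 and 17.9 CPM in TAA (log2 2.65 ± 0.49, adjusted p = 0.00375). Mki67, whose product Ki-67 coats mitotic chromosomes and is the usual proliferation marker, was at 2.38 and 10.1 CPM in control and 48.4 and 36.9 CPM in TAA (log2 2.76 ± 0.58, adjusted p = 0.00692). Both rose, and in both the control libraries differed more from each other, in ratio, than the TAA libraries did. Without the 2 libraries low in Malat1 neither was called, at a log2 of 1.87 for Mki67 (adjusted p = 0.0897) and 1.9 for Top2a (adjusted p = 0.0564). The other called mitotic genes rose by log2 differences from 1.59 ± 0.39 for Kif11, the motor that separates spindle poles, to 3.30 ± 0.58 for Prc1. Between them lay the cyclins Ccna2 and Ccnb2, the kinases Aurka, Aurkb, Plk1 and Bub1, and Birc5, Kif23, Anln and Tpx2, which act at the spindle, midzone or cleavage furrow. The 4 mitotic genes that were not called were Bub1b and Mad2l1 of the spindle checkpoint, Cenpa, the centromeric histone, and Melk, a kinase, with log2 differences from 0.77 ± 0.27 to 2.26 ± 1.12. Melk was at 0 in control replicate 1 and at 0.376 CPM in control replicate 2.

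Of the 16 replication genes, 1 rose and 2 fell. Mcm5, a subunit of the MCM2-7 helicase, was at 5.30 and 8.76 CPM in control and 7.40 and 5.56 CPM in TAA, so the groups overlapped, and the log2 difference was -0.12 ± 0.31 (adjusted p = 0.822). None of the 6 subunits was called, with log2 differences from -0.32 ± 0.31 for Mcm4 to 0.76 ± 0.25 for Mcm2 (adjusted p = 0.051). Pcna, the sliding clamp of the replication fork, was at 36.8 and 22.0 CPM in control and 29.5 and 25.2 CPM in TAA (log2 -0.11 ± 0.21, adjusted p = 0.761). For Mcm5 and Pcna the sign of the difference turned when plain library totals replaced TMM. Rrm2, the S-phase subunit of ribonucleotide reductase, was the replication gene that rose, from 3.79 and 7.53 CPM to 14.1 and 14.6 CPM (log2 1.33 ± 0.34, adjusted p = 0.0172), and this call was lost without control replicate 1, without either TAA library and without the 2 libraries low in Malat1 (log2 0.95, adjusted p = 0.104). The licensing factors Cdt1 (log2 0.87 ± 0.35) and Cdc6 (log2 0.95 ± 0.55), the helicase partners Cdc45 (log2 0.42 ± 0.47) and Gins2 (log2 0.57 ± 0.52) and the thymidylate synthase Tyms (log2 -0.17 ± 0.22) were not called. The partner of Rrm2, Rrm1, was at 10.7 and 13.9 CPM in control and 14.5 and 15.1 CPM in TAA and was not called.

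Mcm10 and Tk1 were lower after TAA, against the direction of most called genes. Mcm10, a scaffold that helps to activate the helicase (ENSMUSG00000026669, chromosome 2 from 4989714 to 5012344 on the minus strand), was at 45.3 and 54.3 CPM in control and 15.2 and 13.4 CPM in TAA. The groups were well apart and the log2 difference was -1.80 ± 0.27 (adjusted p = 0.00129). Per length, in TPM (a level scaled by gene length and library), Mcm10 ranged from 7.18 to 29.0 over the libraries and the subunits of MCM2-7 from 0.44 to 9.03. Mcm10 was above the highest of these subunits in every library except TAA replicate 2, where it was at 7.18 and Mcm7 at 7.93 TPM. Tk1, the thymidine kinase of S phase, was at 28.3 and 20.1 CPM in control and 5.01 and 7.84 CPM in TAA (log2 -1.91 ± 0.31, adjusted p = 0.00172). Tk1 overlaps Afmid, a gene of tryptophan breakdown, by 169 bases on the other strand of chromosome 11. Afmid was at 206 and 135 CPM in control and 25.4 and 29.9 CPM in TAA, so it moved with Tk1. The sources used here do not give the strand setting of the counting, reads of the 2 genes may be mixed, and the part of Afmid in the Tk1 result was not tested. Tk1 also overlaps the protein-coding Gm20708 on the other strand by 10567 bases, with means of 1.31 CPM in control and 0.766 CPM in TAA for Gm20708. In all, 12 of the 50 genes overlap another protein-coding gene, among them Ccnd1 and LTO1 (9.18 CPM in control and 11.2 CPM in TAA on average), Ccna2 and Exosc9, and Kif20a and Cdc23. Cdt1 overlaps Galnt2l by 5114 bases on the same strand, and Galnt2l averaged 23.4 CPM in control and 19.8 CPM in TAA. E2f8 overlaps the noncoding Gm2788 on the other strand, whose mean was 22.5 CPM in control and 2.09 CPM in TAA.

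**Figure D3:**
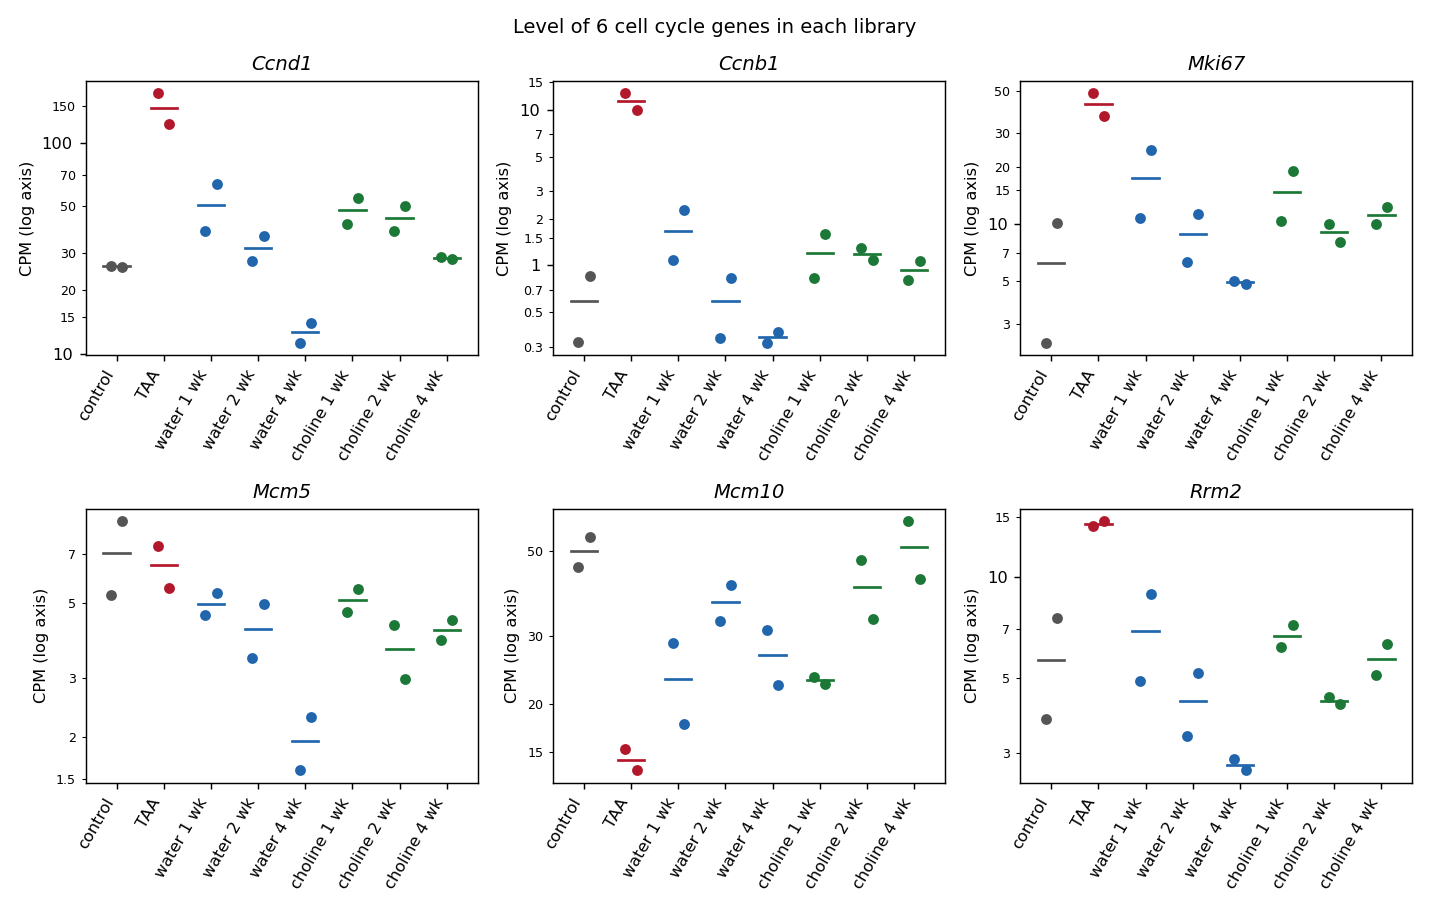
Level in CPM, on a log axis, of Ccnd1, Ccnb1, Mki67, Mcm5, Mcm10 and Rrm2, with 1 point per library and a line at the mean of each group. Ccnd1 and Ccnb1 peak in the TAA libraries, Mcm5 is lowest at 4 weeks without choline (1.59 and 2.29 CPM) and Mcm10 is lowest in TAA (15.2 and 13.4 CPM).

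The libraries and the scaling used changed the count of calls with TAA. In control, 24 of 25 mitotic genes were higher in replicate 2, and replicate 1 was also the control library low in Malat1. With the 2 libraries low in Malat1 left out, control and TAA kept 1 library each, and fewer genes were called. The log2 differences were then 3.53 for Ccnb1, 2.22 for Ccnd1, -2.03 for Mcm10 and -1.36 for Tk1. Fitted on control and TAA alone, with 4 libraries, 0 genes were called at log2 medians close to those above (2.72 for mitotic genes). Library totals in place of TMM shifted the median of all genes from 0.03 to 0.59 and gave 36 genes higher and 2 lower, with 24 of the mitotic genes, 6 of the G1 genes and 6 of the replication genes higher. The shares of all genes called that are given above are for TMM. Those with plain totals are not given here, so these counts have no background beside them.

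Markers of other cells moved with TAA in the same libraries. Of 6 cholangiocyte markers, 4 rose, and their summed level was 41.6 to 45.4 CPM in control and 105 to 416 CPM in TAA. Of 6 markers of stellate cells and myofibroblasts, 3 rose, with sums of 61.4 to 62.4 CPM and 279 to 411 CPM. Among 7 macrophage markers Trem2 rose, while the sum was 125 to 179 CPM in control and 123 to 154 CPM in TAA. Lymphocyte markers were low, with T and NK cell sums of 2.7 to 3.15 and 2.29 to 2.53 CPM and B cell sums of 2.15 to 2.46 and 2.98 to 4.27 CPM. The T cell marker Cd4 fell and no B cell marker was called. Of the neutrophil markers S100a9 rose, Ly6g and Mpo were at 0 in both control libraries, and the sum was 0.376 to 0.457 and 1.3 to 2.7 CPM. Of 5 endothelial markers 3 fell (sums 224 to 270 and 141 to 166 CPM), of 7 hepatocyte markers 3 fell (sums 76200 to 95100 and 60400 to 70400 CPM) and of 3 erythroid markers tested Alas2 fell (sums 283 to 529 and 167 to 188 CPM). The part of these shifts in the cell cycle result was not tested. In bulk tissue, more cells in cycle and more RNA of these genes per cell cannot be told apart.

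Further lists of cycle genes, chosen with earlier results of these data known, gave the neighbours of these genes. Of 37 other mitosis genes in the table, 26 rose and 2 fell with TAA, with a median log2 difference of 2.39. Ect2, which directs cytokinesis, rose by 2.98 ± 0.41 (adjusted p = 0.000767), Nek2, a centrosome kinase, by 1.83 ± 0.29 (adjusted p = 0.00164) and Racgap1, the partner of Ect2 at the midzone, by 2.92 ± 0.50 (adjusted p = 0.0024), all on the log2 scale. The 2 that fell were Pttg1 (securin) and Spc24 of the kinetochore. Of 30 other replication genes 3 rose and 4 fell, with a median of 0.30, while 10% of all genes were called higher and 11% lower. Those with the smallest p were Rfc5, a clamp loader subunit that fell by 0.95 ± 0.19 (adjusted p = 0.00539), Chaf1a, a histone chaperone that rose by 1.55 ± 0.33 (adjusted p = 0.00721), and Gins1, a helicase subunit that fell by 1.47 ± 0.33 (adjusted p = 0.0101). Of 8 other G1 and E2F genes tested none was called.

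Of 11 CDK inhibitor and pocket protein genes tested, which restrain the cycle, 5 rose and 1 fell with TAA, beside 10% and 11% of all genes. Cdkn1a, which encodes the p21 inhibitor, was at 27.8 and 18.2 CPM in control and 124 and 134 CPM in TAA (log2 2.49 ± 0.29, adjusted p = 0.000322). Wee1, the kinase that holds CDK1 inactive, was at 2.61 and 4.72 CPM in control and 17.8 and 18.9 CPM in TAA (log2 2.31 ± 0.32, adjusted p = 0.000786). Cdkn2c, the p18 inhibitor, rose by 1.05 ± 0.26 on the log2 scale (adjusted p = 0.0163), and Cdkn2b and Rbl1 also rose. Cdkn1b, the p27 inhibitor, was at 34.3 and 19.9 CPM in control and 24.2 and 22.2 CPM in TAA and was not called. Rbl2, the pocket protein of quiescent cells, fell from 42.8 and 43.3 CPM to 27.1 and 25.8 CPM (log2 -0.70 ± 0.13, adjusted p = 0.00362).

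The next comparisons followed recovery on water without choline, each time against the end of TAA. After 1 week 5 of 50 genes had fallen and none had risen, while 1.78% of all genes tested were called lower. They were Ccnd1 (38.1 and 63.8 CPM, log2 -1.52 ± 0.27, adjusted p = 0.0143), Mcm7, a helicase subunit, and the mitotic genes Ccnb1, Kif20a and Cdc20. Ccnb1 was at 1.09 and 2.26 CPM (log2 -2.75 ± 0.51, adjusted p = 0.0168). Kif20a was lower by a log2 of -2.32 ± 0.42 (adjusted p = 0.0148), Cdc20 by -2.61 ± 0.56 (adjusted p = 0.0278) and Mcm7 by -0.56 ± 0.14 (adjusted p = 0.0458). The Mcm7 call was lost with DESeq2 size factors, without a filter on low counts, with plain library totals and in the compared groups alone. It was also lost on leaving out any single library other than the control libraries. All 25 mitotic genes had negative log2 differences, with a median of -1.51, and 22 of them had an unadjusted p under 0.05. Not called were the log2 differences of -1.57 ± 0.43 for Cdk1, -1.31 ± 0.46 for Top2a, -1.28 ± 0.54 for Mki67 and -1.19 ± 0.61 for Foxm1 among mitotic genes, and of -1.06 ± 0.34 for Rrm2, -0.51 ± 0.21 for Pcna, -0.38 ± 0.31 for Mcm5 and -0.94 ± 0.43 for Ccne2. Of the other lists, 4 of 37 mitosis genes (Ect2, Tacc3, Nek2 and Cdca3) and the inhibitors Cdkn1a and Wee1 had fallen. Replicate 2 of this group was higher than replicate 1 in all 25 mitotic genes, and its mitotic sum was 2.22 times as high. The count of genes called was 0 without TAA replicate 1 or without replicate 1 of the 1-week group, 3 without TAA replicate 2 and 13 by DESeq2, and leaving out control replicate 1 or 2 gave 20 or 19.

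After 2 weeks 26 genes had fallen and 2 had risen against TAA. The fallers were 21 mitotic genes, Ccnd1 and 4 replication genes, where 5.88% of all genes were called lower and 5.13% higher. Ccnb1 was at 0.340 and 0.834 CPM (log2 -4.26 ± 0.57, adjusted p = 0.00162), which is the range of the control libraries. Kif20a (log2 -2.69 ± 0.43, adjusted p = 0.0033), Cdc20 (log2 -3.33 ± 0.59, adjusted p = 0.00546) and Aurka, the centrosomal Aurora kinase (log2 -3.25 ± 0.58, adjusted p = 0.00593), fell most clearly after it. Ccnd1 was at 27.4 and 36.2 CPM (log2 -2.20 ± 0.28, adjusted p = 0.00115). Rrm2 was at 3.36 and 5.16 CPM (log2 -1.75 ± 0.35, adjusted p = 0.00902), and Mcm2 (log2 -1.05 ± 0.25, adjusted p = 0.023), Mcm7 and Rrm1 fell as well. The Mcm7 call was lost without a filter on low counts, in the compared groups alone and on leaving out any single non-control library. Mcm10, at 32.9 and 40.6 CPM, was the gene that had risen most clearly (log2 1.36 ± 0.27, adjusted p = 0.00951), with Tk1 beside it (log2 1.04 ± 0.31, adjusted p = 0.0499). The Tk1 call was lost with a replicate block, with plain library totals, in the compared groups alone and without the 2 libraries low in Malat1 (log2 0.75). It was also lost on leaving out TAA replicate 1, any water library or any library of 1 or 2 weeks of choline. The mitotic markers fell too, with log2 differences of -2.47 ± 0.45 for Cdk1, -2.38 ± 0.49 for Top2a, -2.27 ± 0.57 for Mki67 and -2.26 ± 0.64 for Foxm1, while -1.29 ± 0.44 for Ccne2, -0.59 ± 0.21 for Pcna and -0.62 ± 0.31 for Mcm5 did not pass. The Foxm1 call was lost on leaving out any single non-control library. Those of Top2a and Mki67 were lost without TAA replicate 1 or either 2-week library of water, and that of Cdk1 without either of these 2-week libraries. Of the other lists, 24 of 37 mitosis genes, 9 of 30 replication genes and 5 of 11 inhibitor genes had fallen. Without replicate 1 or replicate 2 of the 2-week group, 4 and 6 genes were called, and without TAA replicate 1, 12.

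After 4 weeks without choline, 24 of 25 mitotic genes, 9 replication genes, Ccnd1 and E2f2 had fallen against TAA, where 8.39% of all genes were called lower. Mcm10 and Tk1 had risen, where 6.47% of all genes were called higher. The Mcm10 call was lost in the compared groups alone, with plain library totals and without the 2 libraries low in Malat1 (log2 1.0). It was also lost without either library of TAA, of 2 or 4 weeks of water, or of 1 or 2 weeks of choline. The Tk1 call was lost without TAA replicate 1 or replicate 2 of 4 weeks of water. The median log2 difference was -3.50 for mitotic genes, -0.98 for replication genes and -0.86 for G1 genes, beside 0.01 for all genes. Ccnb1 was at 0.319 and 0.375 CPM (log2 -5.01 ± 0.60, adjusted p = 0.000536), and Kif20a was at 1.23 and 1.2 CPM (log2 -3.65 ± 0.45, adjusted p = 0.000619). Both libraries of Cdc20 (0.757 and 0.863 CPM, log2 -4.67 ± 0.64, adjusted p = 0.00111) and of Prc1, which bundles the central spindle (0.518 and 0.713 CPM, log2 -4.45 ± 0.62, adjusted p = 0.00128), lay below both control libraries. The mitotic gene that was not called was Birc5, which encodes survivin (1.2 and 1.88 CPM). Mki67 was at 5.02 and 4.84 CPM, Top2a at 1.39 and 2.29 CPM, Cdk1 at 1.2 and 1.95 CPM and Foxm1 at 0.438 and 0.525 CPM, and all 4 fell against TAA. Without replicate 1 or replicate 2 of this group the count of 37 genes called became 19 and 24.

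Of the 16 replication genes, 9 fell and 2 rose at this time. Mcm5 was at 1.59 and 2.29 CPM, below every other library of the series (log2 -1.74 ± 0.32 against TAA, adjusted p = 0.00533). Rrm2 was at 2.87 and 2.66 CPM (log2 -2.37 ± 0.36, adjusted p = 0.00173), Mcm2 at 2.87 and 3.68 CPM (log2 -1.68 ± 0.26, adjusted p = 0.002) and Rrm1 at 7.29 and 6.79 CPM (log2 -1.07 ± 0.20, adjusted p = 0.00487). Mcm3, Mcm6, Mcm7, Gins2, a subunit of the GINS complex, and Tyms also fell, while Mcm4, Cdc6, Cdt1, Cdc45 and Pcna were not called. Per length, Mcm7 was the highest of the MCM2-7 subunits in each of the 16 libraries, and the ratio of the highest to the lowest subunit ran from 3.14 to 9.0, with that highest ratio in replicate 1 of 4 weeks without choline. Of the other lists, 31 of 37 mitosis genes and 10 of 30 replication genes fell against TAA and none rose. Pbk, a mitotic kinase, fell by 6.41 ± 0.70 on the log2 scale (adjusted p = 0.000332), Rfc4, a clamp loader subunit, by 2.33 ± 0.34 (adjusted p = 0.00161) and Uhrf1, which helps to copy DNA methylation, by 2.77 ± 0.41 (adjusted p = 0.00161). Cdkn1a was at 51.2 and 63.8 CPM, lower than in TAA (log2 -1.16 ± 0.27, adjusted p = 0.0159) and higher than in control (log2 1.32 ± 0.28, adjusted p = 0.0155).

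**Figure D4:**
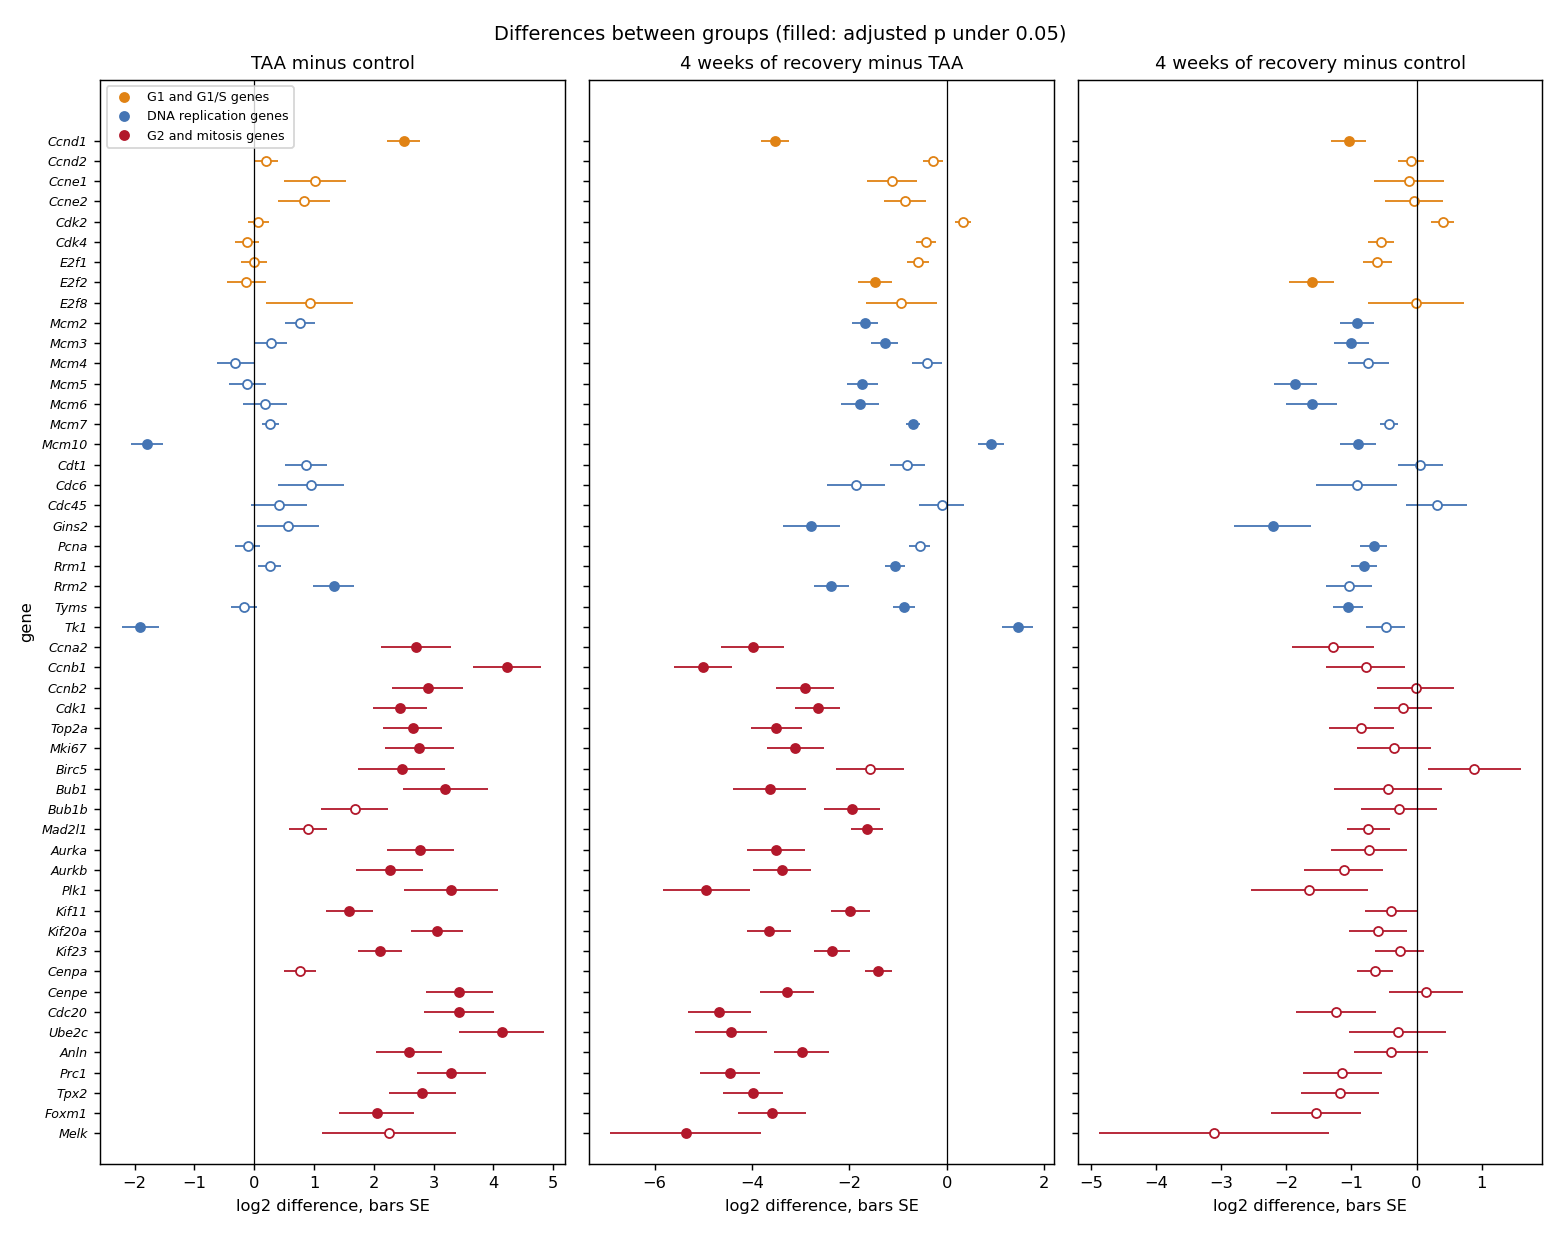
Log2 differences with SE bars for each of the 50 genes in 3 comparisons of n = 2 against 2 libraries, with filled points at an adjusted p under 0.05 and colours for the phases. The red mitotic points lie to the right in TAA minus control and to the left in 4 weeks of recovery minus TAA, and in 4 weeks minus control the filled points are 9 replication genes, Ccnd1 and E2f2.

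Recovery without choline was then set against control instead of TAA. These comparisons share control or TAA libraries with those above, so the 2 are not independent. A gene that did not pass was not shown to have returned to its control level. After 1 week Mcm10 was the gene called, at 28.7 and 17.7 CPM (log2 -1.10 ± 0.27, adjusted p = 0.0476), where 2.35% of all genes were called lower. This call was lost in a fit of the compared groups alone and with plain library totals. It was also lost on leaving out any single library other than control replicate 2, and without the 2 libraries low in Malat1 (log2 -1.24). Ccnd1 was still above both control libraries (log2 0.97 ± 0.27, adjusted p = 0.0574), as was Cenpe (log2 1.79 ± 0.55, adjusted p = 0.0692), and neither passed. The mitotic median was 0.97, and 8 of the 25 had an unadjusted p under 0.05. The other genes followed at each time did not pass, at log2 1.48 ± 0.54 for Ccnb1, 1.48 ± 0.56 for Mki67, 1.34 ± 0.48 for Top2a, 0.87 ± 0.44 for Cdk1 and 0.86 ± 0.62 for Foxm1, and 0.28 ± 0.34 for Rrm2, -0.61 ± 0.21 for Pcna, -0.50 ± 0.31 for Mcm5 and -0.11 ± 0.43 for Ccne2. DESeq2 called 6 of the 50 genes at this time, 4 of them higher, and more were called without control replicate 2, which left 1 control library. The shares of all genes called in these fits are not given here, so the counts are not a result about these genes. After 2 weeks edgeR and DESeq2 each called 0 of the 50, 5 had an unadjusted p under 0.05, and 0.399% of all genes were called. The smallest p-values were those of Pcna (log2 -0.70 ± 0.21, adjusted p = 0.107), Tyms (log2 -0.66 ± 0.23, adjusted p = 0.121) and Tk1 (log2 -0.88 ± 0.30, adjusted p = 0.121). Mitotic genes were close to the mean of the control libraries, with log2 differences of -0.03 ± 0.57 for Ccnb1, -0.03 ± 0.45 for Cdk1, 0.27 ± 0.49 for Top2a, -0.21 ± 0.64 for Foxm1 and 0.49 ± 0.56 for Mki67 and a median of 0.13. The mitotic sums were 27.4 and 55.1 CPM in control and 39.1 and 55.1 CPM at 2 weeks, so this closeness rests on a mean of 2 unlike control libraries. Ccnd1 was at a log2 of 0.29 ± 0.27, Mcm5 at -0.74 ± 0.31, Rrm2 at -0.42 ± 0.34 and Ccne2 at -0.47 ± 0.44. Of the 16 replication genes, 15 had a log2 difference below 0 and 1 above, with a median of -0.43 beside 0.01 for all genes. Some genes were called without control replicate 2, again with 1 control library left and no share of all genes beside them.

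At 4 weeks, 9 replication genes and the G1 genes Ccnd1 and E2f2 were lower than in control and no mitotic gene was called, where 12.2% of all genes were called lower. Mcm5 had the smallest p (log2 -1.86 ± 0.33, adjusted p = 0.00993). Tyms stood at 3.74 and 3.60 CPM where the control libraries had 9.01 and 6.23 CPM (log2 -1.05 ± 0.23, adjusted p = 0.0166). E2f2, an activating E2F, was at 1.08 and 1.35 CPM against 4.34 and 3.08 CPM (log2 -1.61 ± 0.35, adjusted p = 0.0169), and Ccnd1 at 11.3 and 14.0 CPM (log2 -1.04 ± 0.27, adjusted p = 0.0267). The other called genes were Mcm2, Mcm3, Mcm6, Mcm10, Gins2, Pcna and Rrm1, with log2 differences from -0.66 to -2.21. Mitotic genes had a median of -0.64, with 3 of 25 at an unadjusted p under 0.05 and none called by DESeq2, and 22 of the 25 means were below the control mean. The log2 differences were -0.78 ± 0.61 for Ccnb1, -0.21 ± 0.45 for Cdk1, -0.85 ± 0.50 for Top2a, -0.35 ± 0.57 for Mki67 and -1.54 ± 0.69 for Foxm1, and -1.04 ± 0.35 for Rrm2 and -0.04 ± 0.44 for Ccne2. Of 30 other replication genes 8 were lower and of 37 other mitosis genes 2, Spc24 and Pbk. Without the 2 libraries low in Malat1, Ccnd1 (log2 -1.04, adjusted p = 0.0751) and Pcna (log2 -0.25, adjusted p = 0.241) were not called, while Foxm1 (log2 -2.29, adjusted p = 0.0211) and Rrm2 (log2 -1.45, adjusted p = 0.02) were. These calls were 0 without either 4-week library and 0 in a fit of the compared groups alone, and with plain library totals 1 gene was higher and 3 were lower. Without control replicate 2 the mitotic median was 0.01, and without control replicate 1 it was -1.0, so the position of mitotic genes relative to control turned on which control library was used.

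The steps between neighbouring recovery times gave few calls. From 1 to 2 weeks edgeR and DESeq2 called 0 of the 50 genes, 6 had an unadjusted p under 0.05, and 0.0% of all genes were called. The smallest p-values were those of Ccnb1 (log2 -1.5 ± 0.55, adjusted p = 0.852), Ccnd1 (log2 -0.68 ± 0.27, adjusted p = 0.893) and Mcm10 (log2 0.67 ± 0.27, adjusted p = 0.893). From 2 to 4 weeks edgeR called 0, 11 had an unadjusted p under 0.05, and 0.266% of all genes were called. Ccnd1 was lower at 4 weeks by a log2 of -1.33 ± 0.27 (adjusted p = 0.0866), and it was called by DESeq2 (adjusted p = 0.000897) and without the 2 libraries low in Malat1 (adjusted p = 0.04). Mcm5 (log2 -1.11 ± 0.32, adjusted p = 0.283) and E2f2 (log2 -1.14 ± 0.35, adjusted p = 0.321) came next, and without those 2 libraries Mcm5 was called too (adjusted p = 0.0423). From 1 to 2 weeks the log2 differences of the markers were -0.99 ± 0.55 for Mki67, -1.06 ± 0.48 for Top2a, -0.90 ± 0.44 for Cdk1, -1.07 ± 0.63 for Foxm1, -0.69 ± 0.34 for Rrm2, -0.35 ± 0.44 for Ccne2, -0.24 ± 0.31 for Mcm5 and -0.08 ± 0.21 for Pcna. From 2 to 4 weeks they were -0.76 ± 0.61 for Ccnb1, -0.84 ± 0.57 for Mki67, -1.12 ± 0.50 for Top2a, -0.18 ± 0.45 for Cdk1, -1.33 ± 0.69 for Foxm1, -0.62 ± 0.35 for Rrm2, 0.43 ± 0.44 for Ccne2 and 0.03 ± 0.21 for Pcna.

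Recovery with choline was compared with recovery without it at the same time, to ask whether choline altered the cycle genes during the resolution of fibrosis. No gene of the 50 passed at any time. At 1 week edgeR and DESeq2 called 0, no gene had an unadjusted p under 0.05, and 0.0% of all genes were called. The smallest p-values were those of Mcm7 (log2 -0.27 ± 0.14), Cdt1, a licensing factor (log2 -0.61 ± 0.35), and Cdc20 (log2 -0.91 ± 0.56), each with an adjusted p of 1.0. At 2 weeks both tools called 0, 1 gene had an unadjusted p under 0.05, and 0.0% of all genes were called. That gene was Ccne1, a cyclin E (log2 1.22 ± 0.55), followed by Ccnb1 (log2 1.00 ± 0.56) and Ccnd1 (log2 0.48 ± 0.27), each with an adjusted p of 1.0. Among the other genes followed, the log2 differences at 1 week ran from -0.90 ± 0.63 for Foxm1 to 0.42 ± 0.43 for Ccne2, and at 2 weeks from -0.21 ± 0.32 for Mcm5 to 0.18 ± 0.48 for Top2a. Ccnd1 was at 41.3 and 55.0 CPM with choline at 1 week and 38.0 and 50.4 CPM at 2 weeks, and at 1 week these overlapped the libraries without choline (38.1 and 63.8 CPM), while at 2 weeks they lay above them (27.4 and 36.2 CPM).

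At 4 weeks the choline libraries were the higher ones for most genes, without any passing in edgeR. Of the 50 genes, 32 had both choline libraries above both water libraries (2 G1, 11 replication and 19 mitotic genes), as did 19.9% of all genes. The median log2 difference was 0.94 for mitotic genes, 0.44 for replication genes, 0.13 for G1 genes and -0.02 for all genes. Ccnd1 was at 28.7 and 28.2 CPM with choline and 11.3 and 14.0 CPM without, and did not overlap (log2 1.17 ± 0.27, adjusted p = 0.329). Mcm10 was at 59.7 and 42.3 CPM with choline and 31.0 and 22.4 CPM without (log2 0.94 ± 0.27, adjusted p = 0.506), and Mcm5 at 3.87 and 4.44 CPM against 1.59 and 2.29 CPM (log2 1.10 ± 0.32, adjusted p = 0.532). Prc1, named after its values were seen, had the next smallest adjusted p, at 2.22 and 2.83 CPM against 0.518 and 0.713 CPM (log2 2.03 ± 0.60, adjusted p = 0.532). Pcna (log2 0.03 ± 0.21) and Ccne2 (log2 0.04 ± 0.43) were close to 0, while Top2a (log2 1.45 ± 0.50), Ccnb1 (log2 1.42 ± 0.59), Foxm1 (log2 1.61 ± 0.69), Mki67 (log2 1.18 ± 0.57) and Rrm2 (log2 1.04 ± 0.35) were higher in both choline libraries without passing. Cdk1 was at 1.42 and 2.9 CPM with choline and 1.2 and 1.95 CPM without, and overlapped.

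The calls at 4 weeks rested on the tool: edgeR called 0 of 50 with 13 at an unadjusted p under 0.05, DESeq2 called Ccnd1 (log2 1.19, adjusted p = 0.0144), and edgeR without a filter on low counts called 6, all higher, and 0.052% of all genes were called in edgeR with the filter. Averaged over the 3 times, edgeR and DESeq2 called 0 with 2 at an unadjusted p under 0.05, and 0.0173% of all genes were called. Ccnd1 had a mean log2 difference of 0.52 ± 0.15, Mcm10 of 0.35 ± 0.15 and Ccnb1 of 0.65 ± 0.32, each with an adjusted p of 1.0. The test of whether the choline difference itself changed between times called 0 by both tools, with 5 at an unadjusted p under 0.05 and 0.0% of all genes called. Ccnd1, Mcm5 and Ccna2, which encodes cyclin A2, had its smallest p-values, each with an adjusted p of 1.0. At 4 weeks the cholangiocyte sums were 49.5 and 153 CPM with choline and 92.1 and 154 CPM without, and the stellate sums were 85.1 and 191 CPM and 102 and 160 CPM. No gene of those lists was called.

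**Figure D5:**
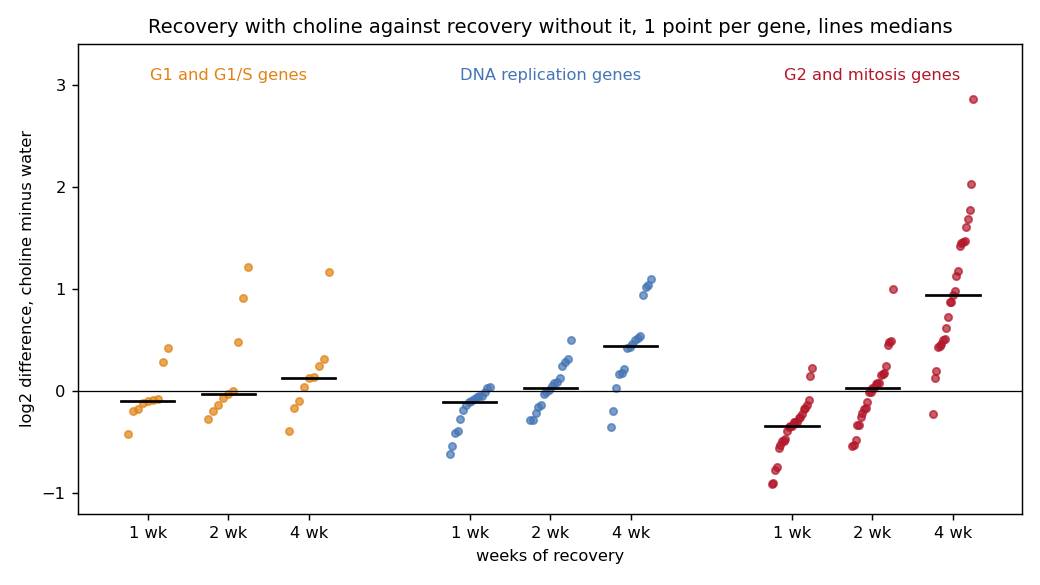
Log2 difference of choline minus water at 1, 2 and 4 weeks, with 1 point per gene in rank order and a line at the median of each phase. The medians of mitotic genes go from -0.34 at 1 week to 0.03 at 2 weeks and 0.94 at 4 weeks, and no point passed an adjusted p of 0.05.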

How the data were processed

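The 50 genes and all lists were chosen with earlier results of these data known. Total RNA extracted with TRIzol was, per the labels, depleted of ribosomal RNA and made into directional libraries. The authors deposited expected counts per gene, which are not normalised (8.7% of values are not whole), and TPM, which is scaled by length and library and was used here only to compare genes within a library. The submitters' processing notes list STAR 2.7.10b, RSEM 1.3.3, DESeq2 1.36.0 and GRCm38, with no role for any. The sources used here do not give the annotation release, filters or strand setting. Of the deposited columns, 2 matched no sample and were not used.

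Expected counts were rounded. edgeR 4.0.16 in R 4.3.3 (filterByExpr, TMM, robust quasi-likelihood fit of 8 group means over 16 libraries) tested 17292 genes, two-sided, with Benjamini-Hochberg adjustment within each comparison. The script was tested on simulated data. Genes given with tests in TAA against control and recovery against TAA were the 4 called genes with the smallest p in each phase. Other comparisons gave the 2 with the smallest p in each phase. Where under 3 were called, the 3 with the smallest p were given. Added to these were 10 fixed genes and those called against the majority. Of the lists, 3 inhibitors and the 3 called genes with the smallest p were given. Outside this rule, adjusted p-values were given of Ube2c and Mcm2 for TAA against control and of Prc1 for choline at 4 weeks. Alternatives were DESeq2 1.42.0, its size factors, no filter, the compared groups alone, a replicate block, each library left out and, added after seeing the data, plain library totals and leaving out both libraries low in Malat1. Libraries of a group differed beyond sampling noise (chi-square per degree of freedom 13.5 to 221.6, highest in control), and this spread may be technical. Each library counted once as a replicate, though the labels do not state that the libraries stem from different mice. Totals of 23069490 to 33645258 expected counts limit the precision of genes under 1 CPM, such as Melk with 0 to 37 counts.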

Additional observations from a re-analysis of the deposited data

How the results depend on the processing

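In fits of the compared groups alone 0 were called for TAA against control, for 1 week of water against TAA and against control, and for 4 weeks against control, and 1 for 4 against 2 weeks; fewer libraries leave fewer degrees of freedom. Without both libraries low in Malat1 the counts were 16 for TAA against control, 11 for 1 week against TAA, 0 for 1 week against control and 2 for 4 against 2 weeks. With plain library totals they were 38 for TAA against control and 4 for 4 weeks against control. DESeq2 gave 13 for 1 week against TAA, 6 for 1 week against control, 1 for 4 against 2 weeks and 1 for choline at 4 weeks. Without a filter on low counts the counts were 20 for 1 week against TAA, 11 for 1 week against control, 2 for 2 weeks against control, 1 for 2 against 1 week, 2 for 4 against 2 weeks, 6 for choline at 4 weeks, 1 for choline over all times and 3 for its change with time. The cause was not tested, and no share of all genes called is given here for these other fits. Leaving out each library in turn gave 21 to 34 for TAA against control, 0 to 20, 4 to 38 and 19 to 43 for 1, 2 and 4 weeks against TAA, 0 to 17, 0 to 7 and 0 to 10 for the same against control, 0 to 0 for 2 against 1 week, 0 to 1 for 4 against 2 weeks, 0 to 0 for each choline comparison, their mean and the change with time, and 9 to 41 for any group; a lone library was assumed to vary like the other groups. 

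Among 99 values of named genes, signs turned only where the gene was not called in the fit of all 16 libraries with TMM. Against control at the end of TAA, Mcm5 was at 0.29 without control replicate 2 and -0.44 without control replicate 1, 0.07 without TAA replicate 2 and 0.40 with plain totals, and Pcna at 0.30 without control replicate 1 and -0.43 without control replicate 2, 0.00 without TAA replicate 2, 0.18 without the libraries low in Malat1 and 0.52 with plain totals, where it was called (adjusted p = 0.0314). At 4 weeks against control without control replicate 2, the log2 differences were 0.12 for Ccnb1, 0.25 for Cdk1, 0.23 for Foxm1, 1.05 for Mki67 and 0.01 for Top2a, and without control replicate 1 they were -1.32 for Ccnb1, -2.31 for Foxm1, -1.06 for Mki67 and -1.39 for Top2a. Cdk1 was at 0.10 and -0.61 without 4-week replicate 1 and 2 and at 0.13 with plain totals, and Ccne2 at 0.38 without control replicate 1, -0.46 and 0.29 without 4-week replicate 1 and 2, 0.40 without the libraries low in Malat1 and 0.38 with plain totals. Of 2277 alternatives for 99 values of named genes, 1994 kept direction and call, 201 lost the call, 64 gained it and 18 turned. With plain totals the replication sum was 149 CPM in control and 182 CPM in TAA. An E2F site 1 base shorter was in 3 of 20 promoters of mitotic genes. Whether the replicate numbers pair the libraries was not settled. Over 28 pairs of groups the correlation of deviations was -0.256 to 0.511, with a median of 0.06, and exceeded 0.1 in 12. The number of the 25 mitotic genes higher in replicate 2 ran from 8 in TAA to 25 after 1 week of water and 1 week of choline. A replicate block gave 14 for 1 week against TAA and 3 for 1 week against control, and 28 for TAA against control.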
